A study of Caenorhabditis elegans with 2 samples.

Results

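The nuclear pore and nuclear transport genes of *Caenorhabditis elegans* were taken as the 40 protein-coding genes, of 19985 annotated, whose symbols consist of *npp*, *ima*, *imb*, *xpo* or *ran*, a hyphen and a number. They were chosen by symbol, as a family whose binding was already known from these data, so the number bound is a description and was not tested. The family holds 26 nucleoporin genes (*npp*) and 14 genes of soluble transport factors. Binding of EFL-1, a worm E2F transcription factor, was measured by ChIP-seq (sequencing of DNA that is precipitated with a chromatin protein) in whole mixed-sex young adults. The 2 samples form 1 group of biological replicates of strain YL445 (unc119(ed3)III), in which the integrated transgene vrIs81 joins the promoter pPIE-1 to EFL-1::GFP FLAG and the EFL-1 3′UTR, with unc-119 (+) as the marker. The *pie-1* promoter is known for expression in the germline, so the tagged protein is not under the control of the *efl-1* promoter, and tissues of the worm cannot be told apart here. One label gives eGFP-efl-1 as the target and another gives efl-1, so precipitation of untagged EFL-1 was not tested. A control library and worms lacking the transgene were not analysed here, and sequencing depth is unknown.

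The nuclear pore is a channel through the nuclear envelope. An inner ring and Y-shaped complexes form its scaffold, membrane proteins anchor it, and the channel is lined by nucleoporins with phenylalanine-glycine repeats. Importins carry cargo in and exportins carry cargo out, and the GTPase Ran sets the direction, since Ran bound to GTP is made inside the nucleus and spent outside it. E2F proteins bind a short GC-rich site in promoters, often beside cell cycle genes, either as activators or within the repressive DREAM complex, whose other subunits can contact a second element known as the cell cycle homology region (CHR).

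The DNA under 11 of the 31 peaks at these genes is printed first, as examples with and without an E2F core near the summit. The 11 were selected, 8 with a core and 3 without, so they do not give the share of peaks with one. Over all 31 peaks, 15 had a core. In the 8, the middle of the core lay 4 to 30 bp from the summit. The core was searched on either strand, at up to 50 bp from a summit, in the spellings TTCCCGC or TTCGCGC (cytosine after the thymines) and TTGCCGC or TTGGCGC (guanine after them), and capitals mark the bases that belong to a core. Positions are in ce11, counted from 1, and bases are from the RefSeq genome of the same build, WBcel235. Each sequence is read 5′ to 3′ on the strand named, 30 bases around the core nearest the summit for the first 8 and around the summit itself for the last 3.
ima-1, minus strand of chrV:11239433-11239462: agtggaattatTTCCCGCgtgccgccagtt
ran-1, minus strand of chrIII:10748130-10748159: ttttgttcattTTGGCGCgcaaatctggct
npp-3, plus strand of chrII:11874867-11874896: gctgtgtatttTTCGCGCgttcgctgcgag
npp-9, minus strand of chrIII:3404410-3404439: cagggaaagcgTTGGCGCGAAatttcgaaa
npp-8, plus strand of chrIV:1595924-1595953: aaacgcaacttTTCGCGCaaaattccgaat
npp-22, minus strand of chrV:11733693-11733722: aaaaattaactTTCCCGCcgttggggaaag
npp-15, minus strand of chrIII:7928940-7928969: gaaacaaaagtTTCGCGCcacaaacagatt
npp-23, minus strand of chrIV:8869842-8869871: aaaattaaataTTCCCGCcgataacgccac
npp-19, plus strand of chrII:10798652-10798681: aacacgcaaagctacgcgcaattgcggact
xpo-1, plus strand of chrV:7804251-7804280: ccgcgaggagactttccccgcgcgcgccgg
npp-21, plus strand of chrII:7599137-7599166: aaacaatttgaattgttgagcgggattttt
The run of 10 capitals at *npp-9* is a TTGGCGC overlapped by a TTCGCGC on the other strand, and a TTCGAA follows it. The *npp-21* window holds a TTTGAA but no core. The *xpo-1* and *npp-19* windows are rich in CG and GC steps without any of the 4 spellings. At *npp-19* a core lay elsewhere in the peak region, outside the 50 bp around the summit.

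EFL-1::GFP peaks lay at the promoters of most nucleoporin and transport genes. A gene counted as bound if a peak on the authors' optimal list of 2498 peaks had its summit between 1000 bp upstream and 200 bp downstream of the 5′ end of any of its transcripts. By this rule 28 of the 40 genes (70%) were bound, against 12.6% of all protein-coding genes. The bound genes were 18 of 26 *npp* genes (69.2%) and 10 of 14 transport factor genes (71.4%), so the shares of pore genes and of transport factor genes were close. They held 31 peaks, with *npp-2*, *npp-9* and *npp-11* holding 2 summits each. The authors' signal value, whose scale is not stated, ran from 38.6 to 862 over the 31 peaks with a median of 142, and over all optimal peaks it ran from 34.9 to 1564 with a median of 71.1. Optimal peaks in promoter windows had a median of 82. The members lay mostly among the stronger peaks but not at the very top: 16 were in the highest 25% of the optimal list, 6, 7 and 2 in the following bins of 25%, 3 among the 50 highest and 0 among the 10 highest.

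**Figure D1:**
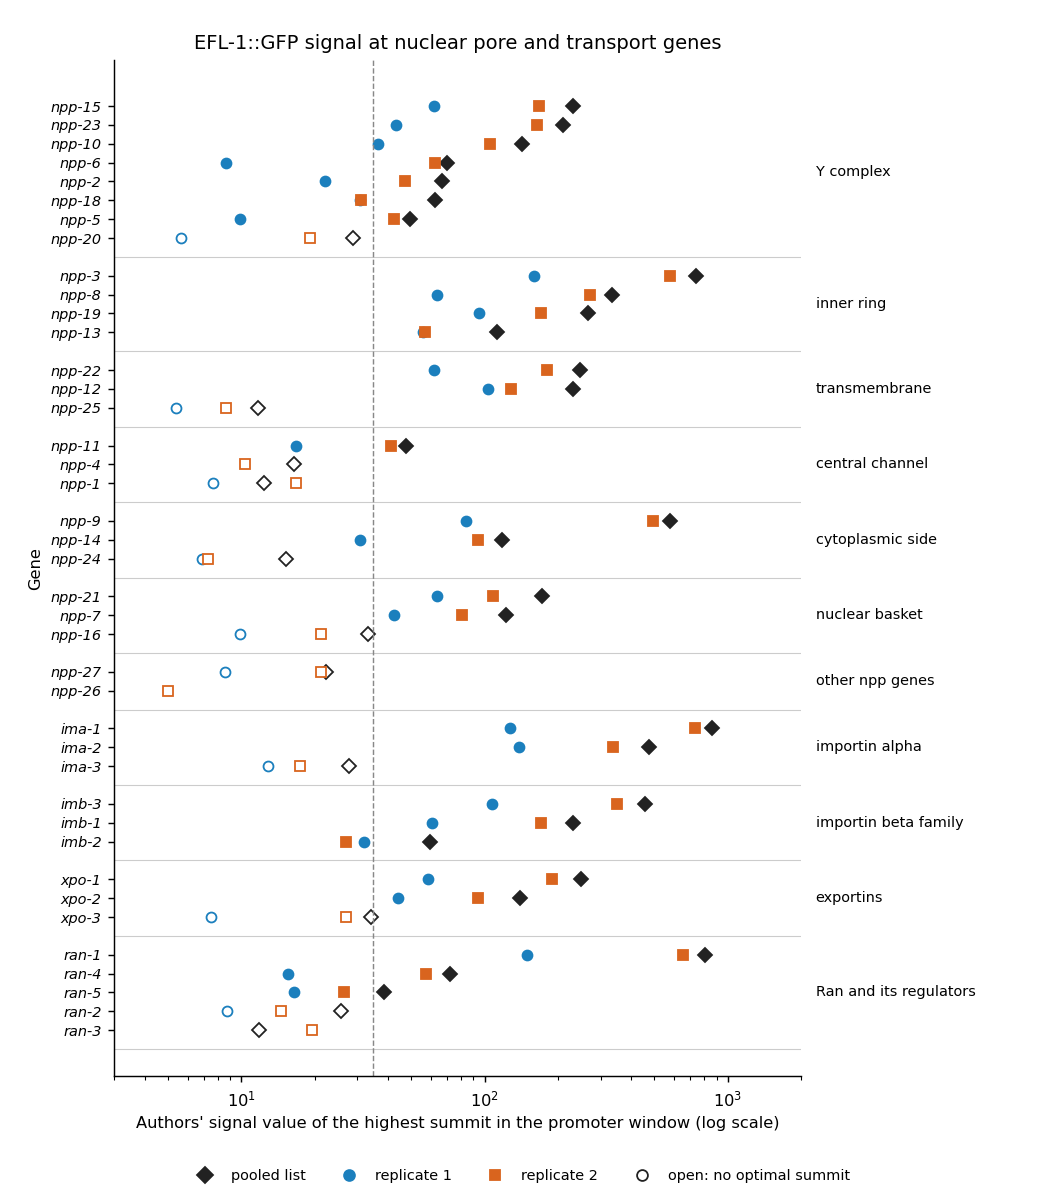
Signal value of the highest summit in the promoter window of each of the 40 genes (log scale), in the pooled list and in each replicate, with genes grouped by the role of their protein and open symbols for genes with no optimal summit. The dashed line is the lowest optimal signal, 34.9, and all 4 inner ring genes lie to its right in the pooled list, with *ima-1*, *ran-1* and *npp-3* farthest right.

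The genes of the inner ring, the part of the scaffold that lines the membrane hole, were all bound. Their 4 pooled signal values had a median of 300 and ran from 112 to 738. *npp-3* (WBGene00003789), the counterpart of human Nup205, had a signal value of 738, with 160 in replicate 1 and 580 in replicate 2. Its peak ranked 59 and 36 among the 30000 regions of the replicates' own lists, where rank 1 is the highest signal. *npp-8*, the counterpart of Nup155, had 333, from 63.8 (rank 317) in replicate 1 and 271 (rank 163) in replicate 2. *npp-19*, the counterpart of the membrane-binding Nup35, had 266, with 94.9 (rank 177) and 171 (rank 309). In either replicate these 3 peaks were among the strongest regions, with rank 317 the lowest of the 6 ranks. *npp-13*, the counterpart of the Nup93 linker, was lower at 112, with 56 (rank 394) in replicate 1 and 56.8 (rank 1154) in replicate 2, so it stood higher in replicate 1. An E2F core lay near the summits at *npp-3*, *npp-8* and *npp-13*, and none at *npp-19*.

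The Y complex, the outer scaffold that is also known to sit at kinetochores in mitosis, had 7 of its 8 genes bound, but with weaker peaks. The median of the 7 was 70.1 and the range 49.4 to 232, so the strongest Y complex peak was below 3 of the 4 inner ring peaks. *npp-15*, the counterpart of Nup133, had 232, from 61.8 (rank 336) in replicate 1 and 167 (rank 324) in replicate 2. *npp-23*, the counterpart of Nup43, had 210, from 43.2 (rank 560) and 164 (rank 338). These were the only members of the complex with a core near the summit. *npp-10*, whose product is cut into the counterparts of Nup98 and Nup96, had 142, from 36.5 (rank 674) in replicate 1 and 105 (rank 615) in replicate 2. *npp-2*, the counterpart of Nup85, had 2 peaks, at 384 bp upstream with 66.8 and farther upstream with 60.8, and both were top regions of both replicates. *npp-18*, the counterpart of Seh1, had 62.4, with rank 836 in replicate 1 and 2082 in replicate 2.

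The remaining Y complex genes were those on which the replicates differed. *npp-6*, the counterpart of Nup160, had 70.1 in the pooled list, from 8.6 (rank 4867) in replicate 1 and 62.3 (rank 1052) in replicate 2. *npp-5*, the counterpart of Nup107, had 49.4, from 9.85 (rank 3529) and 42.5 (rank 1536). Neither was among the 2498 highest regions of replicate 1. *npp-20*, the counterpart of Sec13, which also works in vesicle coats, had no optimal peak, and its highest pooled summit had 28.8 (rank 3064).

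The membrane anchors and the channel nucleoporins gave opposite counts in very small groups. Among the membrane proteins, *npp-22*, the counterpart of NDC1, had 246, from 62.1 (rank 331) in replicate 1 and 181 (rank 289) in replicate 2. *npp-12*, the counterpart of gp210, had 232, from 103 (rank 151) and 128 (rank 473), which placed it higher in replicate 1. Both had a core, and *npp-25*, the third membrane gene and a TMEM33 relative, had no optimal peak and only a weak pooled summit of 11.7 (rank 11980). In the central channel, *npp-11*, the counterpart of Nup62, was the only 1 of 3 genes bound. Its 2 peaks had 47.4 and 38.6, and neither was among the top regions of both replicates: the first ranked 3358 in replicate 1 and 1579 in replicate 2, and the second 1584 and 2745. *npp-1* and *npp-4*, the counterparts of its channel partners Nup54 and Nup58, were not bound, with pooled summits of 12.4 (rank 10730) and 16.4 (rank 6214).

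At the cytoplasmic face and the nuclear basket, 4 of 6 genes were bound. *npp-9*, the counterpart of Nup358, which carries binding sites for Ran on the cytoplasmic filaments, had a peak of 578, from 84.2 (rank 213) in replicate 1 and 492 (rank 51) in replicate 2. Its summit lay 50 bp downstream of the 5′ end, the only member summit downstream of the start of its gene, and it had 3 cores within 50 bp. A second summit of 78.4 lay in the same region, 150 bp upstream. The replicate 1 summit nearest to it ranked 29261, so its overlap with a top region of replicate 1 rests on the first summit's region. *npp-14*, the counterpart of Nup214, had 118, from 30.7 (rank 834) and 94 (rank 696). *npp-24*, the counterpart of its partner Nup88, had no optimal peak and a pooled summit of 15.3. In the basket, *npp-21*, the counterpart of the filament protein TPR, had 173, from 63.7 (rank 319) and 108 (rank 590). *npp-7*, the counterpart of Nup153, had 122, from 42.4 (rank 571) and 81 (rank 812), and *npp-16*, the counterpart of Nup50, was just below the list's end. *npp-26* and *npp-27*, for which no role is stated here, were not bound.

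The 2 strongest peaks of the family were at *ima-1* and *ran-1*, followed by the nucleoporin genes *npp-3* and *npp-9*, and then by *ima-2* and *imb-3*. *ima-1* (WBGene00002072), an importin alpha, the adaptor that recognises nuclear localisation signals, had 862, the highest value of the family, from 127 (rank 96) in replicate 1 and 736 (rank 17) in replicate 2. *ima-2*, the importin alpha known to be needed in the germline and embryo, had 477, from 139 (rank 77) and 339 (rank 113), with 4 cores near its summit. The third gene of the family, *ima-3*, also known for a germline function, had no optimal peak: its highest pooled summit was 27.8 (rank 3176), with 12.9 (rank 2150) in replicate 1 and 17.4 (rank 3874) in replicate 2. The bound pair stood in the top regions of both replicates, whereas *ima-3* was among the 2498 highest regions in replicate 1 and not in replicate 2.

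All 3 importin beta family genes, which carry cargo through the channel, were bound. *imb-3*, an importin of the karyopherin beta family, had 455, from 107 (rank 136) in replicate 1 and 351 (rank 105) in replicate 2. *imb-1*, importin beta itself, had 232, from 60.8 (rank 348) and 170 (rank 316). *imb-2*, the counterpart of transportin, had 59.8, from 31.9 (rank 805) and 26.8 (rank 2414), and stood higher in replicate 1. Only *imb-3* had a core. Among the exportins, *xpo-1*, the CRM1 counterpart that exports proteins with leucine-rich signals, had 249, from 58.5 (rank 368) and 189 (rank 273). *xpo-2*, the CAS counterpart that returns importin alpha to the cytoplasm, had 140, from 43.9 (rank 549) and 93.9 (rank 698). Neither had a core near its summit, and *xpo-3*, the tRNA exportin counterpart, had no optimal peak.

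Within the Ran system the GTPase gene itself was far above its regulators. *ran-1* (WBGene00004302), which encodes Ran, had 808, from 149 (rank 67) in replicate 1 and 657 (rank 25) in replicate 2. *ran-4*, the counterpart of NTF2, which brings Ran back into the nucleus, had 72.3, from 15.6 (rank 1702) and 57.4 (rank 1142). *ran-5*, related to the Ran-binding protein RanBP3, had 38.6, from 16.5 (rank 1595) and 26.3 (rank 2456). The 2 genes that set the nucleotide state of Ran were not bound: *ran-2*, the GTPase-activating protein, had a pooled summit of 25.7 (rank 3455) and *ran-3*, the nucleotide exchange factor RCC1, of 11.8 (rank 11842).

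The end of the optimal list ran through the family. The members just inside it were *ran-5* and the second peak of *npp-11*, both at 38.6, at pooled ranks 2246 and 2247. Just outside it were *xpo-3* at 34.1 (rank 2545) and *npp-16* at 33.2 (rank 2618), with the last optimal peak at 34.9. In replicate 2 alone, *xpo-3* had 26.9 and rank 2394, inside that replicate's 2498 highest regions, while in replicate 1 it had 7.49 and rank 7003. The calls of *ran-5*, *xpo-3* and *npp-16* therefore rest on small differences in signal, whereas *npp-11* has its other summit at 47.4. Of the 12 genes without an optimal peak, 11 had some summit in the pooled list of 30000 regions, and 9 and 12 had one in the lists of replicates 1 and 2. *npp-26* had none in the pooled list, and 4.99 (rank 25863) in replicate 2. With any pooled summit counted, 39 of 40 members had one, but so did 44.7% of all protein-coding genes.

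The count of bound members was compared under other ways of drawing the window and choosing the peaks. With 500 bp upstream, 25 members were bound against 10.4% of all genes, and with 2000 bp it was 28 against 15.3%. Counting the peaks in the upper 50% by signal alone left 21 members, against 7.42% of genes. The top regions of replicate 1 alone gave 27 members against 11.8%, with *npp-5* and *npp-6* lost and *ima-3* gained. Those of replicate 2 alone gave 29 against 12.3%, with *xpo-3* gained and none lost. Replicate 2 had the higher signal values and held more of the optimal peaks, so these 2 counts are not even checks of the optimal list. Peaks found among the top regions of both replicates gave 25 members against 9.91%. When each summit was given to the gene with the nearest 5′ end only, 17 members remained bound, against 9.02% of genes, so 11 members had a bound neighbour whose start was nearer to the summit.

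**Figure D2:**
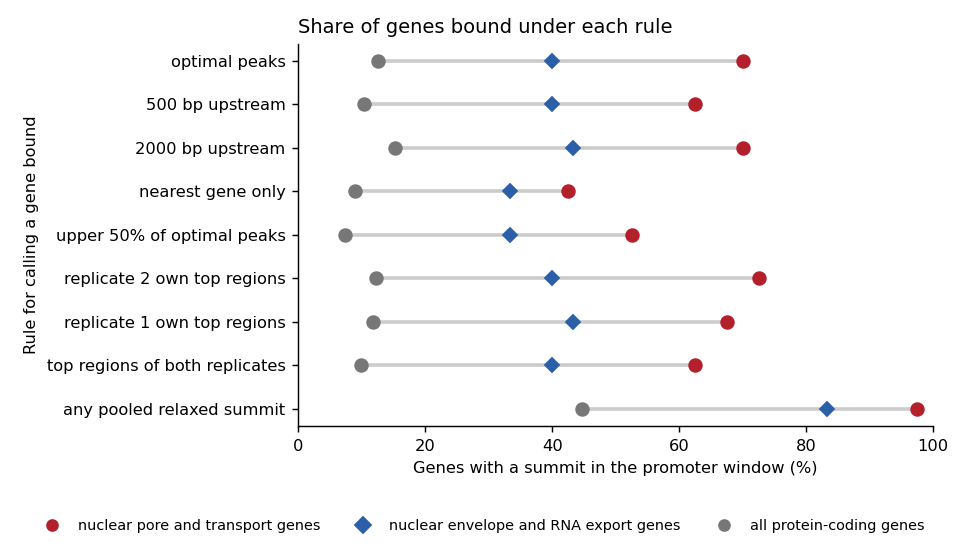
Share of genes (%) with a summit in the promoter window under each of 9 rules. Shown are the 40 nuclear pore and transport genes, the 30 listed nuclear envelope, RNA export and SUMO genes, and all 19985 protein-coding genes. The members lie at 70% against 12.6% of all genes with the optimal list, fall to 42.5% when each summit goes to the nearest gene only, and approach 100% with any pooled summit.

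Many of these promoters were shared with a gene on the other strand. Of the 31 member peaks, 19 (61.3%) also lay in the window of a gene read in the opposite direction. Among optimal peaks in promoter windows, 35% lay in windows of genes on both strands. These shares are unlike measures, since member peaks were picked through genes and the 35% counts each peak once. A peak in the windows of several genes had more chances to be picked as a member peak. How much of the gap comes from this was not tested. The partners at the strongest peaks included *dvc-1*, which encodes a protease of DNA-protein crosslinks, at *ima-1*, *dkc-1*, which encodes the pseudouridine synthase dyskerin, at *ran-1*, and *top-2*, which encodes topoisomerase II, at *npp-3*. *ima-1* and *ran-1* lay farther from the summit (256 and 398 bp) than their partners did (-88 and -303 bp from the partner's 5′ end). At *npp-3* the order was the reverse, with 103 bp against -257 bp for *top-2*. Which gene of a pair the binding acts on was not tested, and the 12 peaks in no other gene's window, which included *ima-2* (477), *imb-3* (455) and *npp-8* (333), do not depend on the choice.

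The other shared peaks joined pore genes to neighbours of mixed function. *npp-6* shared its peak with *spd-5*, which encodes a centrosome scaffold protein and whose intron held the summit, and *npp-2* shared both peaks with *mei-1*, the katanin subunit of the meiotic spindle. *npp-14* shared a peak with *cel-1*, the mRNA capping enzyme gene, *npp-10* with the ubiquitin protease gene *cyk-3*, *npp-7* with the netrin receptor gene *unc-40*, and the second peak of *npp-11* with the ubiquitin ligase gene *ubr-1*. *xpo-1* shared its peak with *uvs-1*, *xpo-2* with *nol-14*, *npp-21* with *pgam-5*, *imb-1* with *mfsd-13.1*, *npp-12* with *T23H2.3*, *npp-15* with *C29E4.13* and *ran-5* with *R12C12.6*, whose coding exon held the summit. Both summits of *npp-9* lay in the window of *F59A2.5*, and the second also in that of *golg-4*. The summits at *xpo-1* and *npp-12* lay 799 and 685 bp upstream of the member but -57 and -154 bp from the partner, so at these genes the partner was much nearer.

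The orientation of the gene next upstream was counted for bound and unbound members, without a test and with only 12 genes unbound. It was read in the opposite direction for 23 of 28 bound members and for 6 of 12 unbound ones, against 65% of all bound and 42.1% of all unbound protein-coding genes. A neighbour on the same strand that ended within 1000 bp was found upstream of 4 of 28 bound and 6 of 12 unbound members, and over all genes upstream of 24.5% of bound and 30.5% of unbound genes. That neighbour was itself bound for 2 of these 6 unbound members, *ran-2* and *npp-1*, and for 0 of the 4 bound ones. *ran-2* starts 479 bp after the end of *npp-15* on the same strand, and *npp-15* carried the peak of 232. *npp-1* starts 420 bp after *K07F5.12*, which was bound at 35.7, near the lowest optimal signal of 34.9. An optimal peak of 74 lay 688 bp downstream of the start of *npp-1*, outside the window. Operon annotation was not used here, so whether such pairs are transcribed together was not tested.

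**Figure D3:**
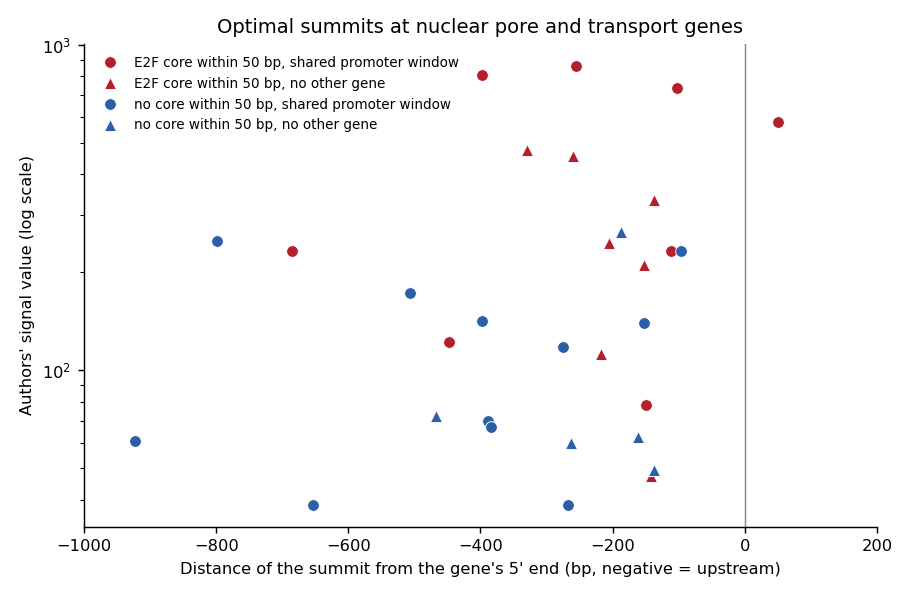
Distance of each of the 31 member summits from the gene's 5′ end (bp, negative is upstream) against its signal value (log scale), with colour for an E2F core within 50 bp and shape for a shared promoter window. The 7 highest peaks, from 333 to 862, all have a core, and most summits lie within 500 bp upstream, with a median of -260 bp.

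Member summits lay at a median of -260 bp from the member's own start (range -923 to 50 bp). All promoter peaks had a median of -195 bp, measured from the nearest start of any gene. These 2 medians are unlike measures and cannot be compared, since 11 members had a neighbour whose start was nearer to the summit. Of the 31, 26 were intergenic, 2 in introns (at *npp-9* and, for *npp-6*, in *spd-5*), 1 in a coding exon and 2 in untranslated or non-coding exons. These last were at *ran-1*, in the non-coding genes *K01G5.11* and *K01G5.12*, and at *npp-22*, in *spe-42*. Member peaks had a median width of 268 bp, against 336 bp for all optimal peaks. Several weak member peaks, such as those at *ran-4*, *imb-2* and *npp-5*, were exactly 336 bp wide, and widths were not compared at like signal. By chromosome, 12 of 13 members on chromosome I were bound, 6 of 8 on II, 5 of 8 on III, 2 of 8 on IV and 3 of 3 on V, and no member lies on X. All genes were bound at 19.7% on chromosome I, 14.1% on II, 21.2% on III, 12.3% on IV and 8.27% on V, and IV had the smallest bound share of members among the chromosomes that hold any.

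The replicates placed most member peaks alike. Of the 31 peaks, 27 (87.1%) overlapped the 2498 highest regions of both replicates, against 72.9% of optimal peaks, and the optimal list was itself built from both. Of the optimal peaks, 2497 overlapped a region in the full list of replicate 2 and 2441 one in that of replicate 1. Pooled values lay nearer to those of replicate 2 at the strongest members, as at *ima-1* (862, from 127 and 736). The top regions of replicate 1 held 28 and those of replicate 2 held 30. Outside the top regions of 1 replicate were the peaks at *npp-5* and *npp-6* and both peaks at *npp-11*, all with pooled signal of 70.1 or less. Summits of the 2 replicates lay a median of 18 bp apart at member peaks and 23 bp at optimal peaks present in both lists. Member peaks ranked higher in replicate 2 in 18 cases and in replicate 1 in 13, a split close to that of all optimal peaks, of which 1090 of 2440 ranked higher in replicate 1. *ima-1*, *ran-1* and *npp-9* stood higher in replicate 2, and *npp-12*, *npp-13* and *imb-2* higher in replicate 1. Signal values were lower in replicate 1, with medians of 43.9 against 105 at member peaks and 21.6 against 52.7 at all optimal peaks. The scales were not put on a common footing, so no meaning was given to this difference.

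**Figure D4:**
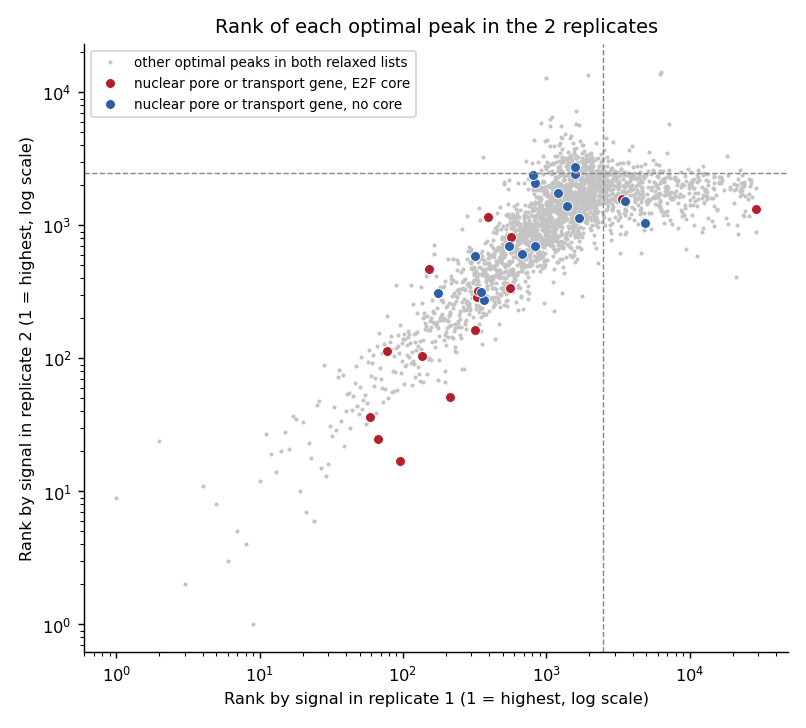
Rank of each optimal peak by signal in replicate 1 and in replicate 2 (both log scales, 1 is the highest), with the 31 member peaks coloured by the presence of an E2F core and the other peaks in grey. The dashed lines mark rank 2498 in each replicate, and 4 member peaks lie beyond it in replicate 1, at ranks 3358 to 29261, at *npp-5*, *npp-6*, *npp-11* and the second summit of *npp-9*.

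An E2F core was found near the summit, within 50 bp, at 15 of 31 member peaks (48.4%), against 30.7% of all optimal peaks and 31.1% of those in promoter windows. In windows of the same length 500 bp to either side, 4 of 62 (6.45%) held a core at member peaks and 4.1% at all optimal peaks. Within 25 bp of the summit the shares were close, with 7 of 31 member peaks (22.6%) and 18.7% of optimal peaks. TTCGCGC was the most frequent spelling, at 8 member peaks (25.8%, against 10.7% of optimal peaks). TTCCCGC and TTGGCGC followed at 5 each (16.1%, against 10.6% and 8.45% of optimal peaks), and TTGCCGC at 1 (3.23% against 4.8%). Peaks with a core had a median signal of 246 and those without one 71.2, and over all optimal peaks these medians were 109 and 64.1. Member peaks were also stronger than optimal peaks (medians 142 and 71.1), and shares with a core were not compared at like signal. The 7 strongest member peaks, from *ima-1* to *npp-8*, all had a core, as printed above for 5 of them but not for *ima-2* and *imb-3*. The strongest without one was *npp-19* at 266. The peak at *imb-1* (232) also had none and was not printed. The middle of the nearest core lay 3 to 43 bp from the summit, with a median of 23 bp.

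By role, cores lay at the peaks of 3 of 4 bound inner ring genes, 2 of 7 Y complex genes, 2 of 2 importin alpha genes, 2 of 2 membrane genes and 0 of 2 exportins, counts too small to set roles apart. CHR-like elements, searched as TTCGAA and TTTGAA on both strands, lay within 50 bp of the summit at 20 of 31 member peaks (64.5%), against 38.8% of optimal peaks. In the flanking windows the shares were 22.6% at member peaks and 29.4% at optimal peaks, which is the level this 6-base element reached away from the summits. Either element was present at 23 of 31 member peaks, but the share of all optimal peaks with either was not counted. At 12 member peaks both lay in the window without overlapping, and the bases between the core nearest the summit and the closest such element ran from 1 to 54 with a median of 11. The spacing was exactly 11 bases at *ran-1*, *npp-8*, *npp-15* and the second summit of *npp-9*, and 5 at the first summit of *npp-9*, whose printed window shows both elements. Among 355 optimal peaks with both, the median spacing was 9 bases. At most 10 bases lay between the elements at 3 of the 12 member peaks (25%), against 198 of the 355 optimal peaks (55.8%). The share of optimal peaks with a spacing of 11 bases was not counted. A match to these letters is a description of the DNA and not a mapped site.

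Genes of the nuclear envelope, of RNA export and of SUMO conjugation were counted in the same way for comparison, from a list of 30. The list includes *mel-28*, a pore gene that the symbol rule leaves out, which was not bound. Of the 30 genes, 12 (40%) were bound, against 12.6% of all protein-coding genes, and the difference from the members' 70% was not tested. The highest were the SUMO gene *smo-1* (546), the RNA export adaptor gene *aly-2* (406), the SUMO-conjugating enzyme gene *ubc-9* (343) and the RNA helicase gene *hel-1* (279). Envelope genes had lower values: *sun-1* had 150, *nemp-1* 146, *lem-2* 134, *lem-3* 132, *zyg-12* 103, the emerin gene *emr-1* 97.1, *lem-4* 52.9 and *baf-1* 43.7. All 12 were bound through top regions of both replicates, as were 25 of the 28 bound members and 1980 of the 2513 bound protein-coding genes.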

How the data were processed

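The authors deposited peak lists with 10 columns per replicate, pooled and as an optimal list that passed a reproducibility threshold, called against a control, per the description deposited with each sample. Column 7 holds the authors' signal value, of unstated scale, and the deposited signal was used only to rank and describe peaks within a list. For the aligner, the peak caller and this threshold, names and settings were not given in the sources used here. Read depth is unknown. The ce10 lists were not used. The optimal list equalled the 2498 pooled regions of highest signal. Summits were matched to Ensembl release 115 genes on WBcel235, and all regions lay inside the RefSeq chromosome lengths. Of 31817 annotated start codons, 99.8% read ATG in that genome. A replicate's top regions are its 2498 highest, matched by an overlap of at least 1 bp. A summit can count for several genes.

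The members and lists were chosen with earlier results of these data known, so no test was made. The text names every member, every gene sharing a member's peak and every bound gene of the envelope and export list. Genes were also counted with other windows, the nearest gene only, the upper 50% of peaks and each replicate alone. Assignment and motif search were tested on simulated data. Python 3.11.15 and matplotlib 3.10.9 were used.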

Additional observations from a re-analysis of the deposited data

How the results depend on the processing

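The count of bound members stayed within 1.5 times 28 with windows of 500 and 2000 bp, with the upper 50% of peaks by signal and with either replicate alone (27 to 29), and fell to 17 when each summit went to the nearest gene only. The upper 50% of peaks reduced the bound protein-coding genes from 2513 to 1483. Member peaks with an E2F core numbered 15 as reported. Within 25 bp of the summit there were 7 (22.6%, against 18.7% of optimal peaks), so most of the excess seen at 50 bp was absent there. Within 100 bp there were 17 (54.8% against 36.1%), and with 1 more T before the core 10 (32.3% against 17.1%). A reciprocal overlap of 50% left 17 of the 25 members found in both replicates. The share of all protein-coding genes under that overlap is not given here, so this loss cannot be set against theirs. Sequencing depth is unknown, so peaks not called cannot be told apart from peaks not detectable at this depth. No paired analysis was possible because there is 1 group.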
